A study of Homo sapiens with 2 samples.

Results

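The distal 20 Mb of the short arm of chromosome 5 held 1222 of the 120033 peaks called in normoxia and 3433 of the 258195 peaks called in hypoxia. A peak was a member when its summit lay on chromosome 5 below position 20000000 of the hg38 build. The peaks mark histone H4 acetylated at lysine 5 (H4K5ac), mapped by chromatin immunoprecipitation and sequencing (ChIP-seq) in FaDu, an established cell line from a human carcinoma of the head and neck. One library came from cells kept in normoxia and the other from cells kept in 1% oxygen for 18 h, so each condition had 1 library and no difference below has a replicate check. Both came from the same cell line, grown by the same protocol. That protocol also describes a METTL4 knockdown, which no label assigns to either library, and the series design text names another antibody target than the sample labels, which give H4K5ac. The stretch was selected on the ratio of strong peaks between these libraries in earlier results, so the peak numbers, ratios and overlaps of this stretch are descriptions of what selected it. Here a strong peak is one with a −log10 q-value, the authors' value, of at least 10.

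H4K5ac is a mark of open, transcribed chromatin, found at promoters and at distal regulatory elements, and acetylated lysines of the H4 tail are bound by bromodomain proteins. Chromosome 5p15 carries TERT, the catalytic subunit of telomerase, which is silent in most differentiated cells and active in most cancers, and gain of 5p is frequent in squamous carcinomas. Centromeric to TERT lies the IrxA cluster of IRX4, IRX2 and IRX1, homeodomain transcription factors of the Iroquois family that pattern heart, lung, limb and nervous system, separated by long gene-poor stretches. In low oxygen the transcription factor HIF binds elements with the core ACGTG or GCGTG.

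The sequences below are the 250 bases before the most upstream start site of 7 genes at which the peak patterns differed, from RefSeq on GRCh38.p14, the assembly that hg38 names, 5′ to 3′ on the gene's strand. They stand for the telomerase gene, the 3 Iroquois genes, the promoter with the strongest hypoxia peak (MED10) and 2 long non-coding RNA genes in the gene-poor stretch around 3 Mb. Capitals mark every match to ACGTG or GCGTG on either strand, which reads CACGT or CACGC on the other strand, and the palindrome CACGTG, an E-box, holds the core on both strands.
TERT: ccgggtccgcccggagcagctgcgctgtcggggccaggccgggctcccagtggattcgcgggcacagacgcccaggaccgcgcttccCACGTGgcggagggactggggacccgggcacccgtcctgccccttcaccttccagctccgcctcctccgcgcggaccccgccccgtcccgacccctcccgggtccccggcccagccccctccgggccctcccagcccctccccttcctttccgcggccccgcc
IRX4: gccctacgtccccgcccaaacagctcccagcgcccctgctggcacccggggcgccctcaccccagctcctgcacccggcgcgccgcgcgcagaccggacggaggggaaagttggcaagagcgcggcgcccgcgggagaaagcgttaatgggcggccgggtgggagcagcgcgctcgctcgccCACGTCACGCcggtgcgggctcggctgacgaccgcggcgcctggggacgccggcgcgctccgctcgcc
IRX2: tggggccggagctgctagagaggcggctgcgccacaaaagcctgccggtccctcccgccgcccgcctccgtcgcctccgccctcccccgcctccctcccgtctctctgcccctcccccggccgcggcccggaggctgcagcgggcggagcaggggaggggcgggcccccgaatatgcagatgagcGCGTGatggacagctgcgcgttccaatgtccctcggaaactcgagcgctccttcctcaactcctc
IRX1: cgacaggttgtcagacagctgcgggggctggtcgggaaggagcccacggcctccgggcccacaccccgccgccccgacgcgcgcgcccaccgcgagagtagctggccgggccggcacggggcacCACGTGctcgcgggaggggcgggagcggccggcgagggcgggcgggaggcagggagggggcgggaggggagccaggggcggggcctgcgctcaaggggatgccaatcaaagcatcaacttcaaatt
MED10: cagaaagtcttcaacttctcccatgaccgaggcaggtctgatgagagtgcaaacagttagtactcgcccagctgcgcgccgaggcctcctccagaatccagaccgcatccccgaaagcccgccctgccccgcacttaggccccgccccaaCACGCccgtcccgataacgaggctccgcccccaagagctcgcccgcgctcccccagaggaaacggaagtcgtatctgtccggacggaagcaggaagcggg
LINC01377: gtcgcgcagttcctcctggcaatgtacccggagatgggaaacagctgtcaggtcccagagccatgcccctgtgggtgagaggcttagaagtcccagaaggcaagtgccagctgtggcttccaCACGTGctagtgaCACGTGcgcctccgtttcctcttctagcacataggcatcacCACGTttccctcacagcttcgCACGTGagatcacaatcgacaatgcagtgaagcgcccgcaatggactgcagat
LINC01019: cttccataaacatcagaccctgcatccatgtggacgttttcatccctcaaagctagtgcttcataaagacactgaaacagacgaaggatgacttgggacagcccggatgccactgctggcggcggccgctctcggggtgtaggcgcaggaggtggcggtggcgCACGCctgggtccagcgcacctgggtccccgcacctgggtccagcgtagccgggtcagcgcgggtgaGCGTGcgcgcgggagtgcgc
The windows lie at chr5:1295069-1295318 (TERT, minus strand), chr5:1887180-1887429 (IRX4, minus), chr5:2751678-2751927 (IRX2, minus), chr5:3595582-3595831 (IRX1, plus), chr5:6378548-6378797 (MED10, minus), chr5:3177585-3177834 (LINC01377, plus) and chr5:3536095-3536344 (LINC01019, minus). The LINC01377 window held 7 core matches over both strands, 6 of them in 3 E-boxes, whereas TERT and IRX1 each held 1 E-box and MED10 a single core. Windows of 2 other non-coding genes around 3 Mb, not printed, held fewer, 0 in LINC01017 and 1 in LINC02162. LINC01377 was chosen after its values were seen. CpG dinucleotides numbered 40 in the IRX4 window, 28 in TERT, 29 in IRX1 and 13 in LINC01377. A match describes letters in the window and says nothing of binding.

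Across the whole lists the hypoxia library had 2.15 times as many peaks and 1.63 times as many strong peaks as the normoxia library. Depth could be read only indirectly. Solving each peak's fold and p-value for its pileup (reads over the summit) and local background gave a lowest background of 3.13 reads in normoxia and 3.24 in hypoxia, and a read ratio of 1.18 if the narrowest peaks equal the fragment lengths (1.04 with equal fragments). Of 8 squamous epithelial marker genes, 7 had a gene-end peak in both libraries and TP63 in hypoxia only. Of 9 marker genes of other cell types, 3 had no gene-end peak in either library, 5 had one in hypoxia alone and 1 had one in both. Over all protein-coding genes 69.8% had one in both and 11.7% in hypoxia alone. Intervals below are 95% exact (Clopper-Pearson) and cover counting error over peaks, not replicate error.

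The distal 5p stretch was denser in hypoxia peaks than in normoxia peaks along its whole length. The 3433 hypoxia peaks were 2.81 times the 1222 normoxia peaks (2.63 to 3.0), and 480 strong hypoxia peaks were 2.79 times the 172 strong normoxia peaks (2.34 to 3.34). In the rest of the genome the strong ratio was 1.62, and in chromosome 5 from 20 Mb onward it was 1.72. Hypoxia peaks covered 1247 kb and normoxia peaks 515 kb, with median widths of 295 and 312 bp. Among the 163 stretches of 20 Mb that tile the genome the distal 5p stretch ranked 10 by strong ratio and 12 by the ratio of all peaks. The adjoining stretch from 20 to 40 Mb ranked 11, with 117 and 326 strong peaks (ratio 2.79), but its ratio of all peaks was only 1.93. The high strong ratio was thus not limited to the distal 20 Mb of the arm, and over 0 to 48 Mb it was 2.77.

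The size of the strong ratio depended on where strong was set. With a −log10 q of at least 5 the region held 1575 hypoxia and 360 normoxia peaks, a ratio of 4.38. With at least 20 it held 164 and 90, a ratio of 1.82, which was 1.18 times that of the rest of the genome (interval 0.905 to 1.54). With at least 10 the same comparison gave 1.72 times (1.44 to 2.06), and with the hypoxia pileups scaled down by the read ratio it gave 1.5 times (1.25 to 1.82). With at least 5 the region's ratio was 1.95 times that of the rest (1.73 to 2.19). At 20 the interval also held equality with the rest of the genome, and at 5 and 10 it did not. The region was selected on such a ratio, so these intervals do not test the excess. Peaks with a −log10 q from 5 to 10 numbered 1095 in hypoxia and 188 in normoxia in the region, and 69320 and 22505 elsewhere. Those from 10 to 20 numbered 316 and 82 in the region, and 22445 and 13073 elsewhere.

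By 1 Mb bin, 17 of 20 bins had a strong ratio above the genome-wide 1.63, against 47% of all bins (1303 of 2772). The 3 bins below it, those from 0, 1 and 16 Mb, had ratios of 1.52, 1.58 and 1.58, each with an interval that held the genome-wide value. The bin from 3 Mb had the most hypoxia peaks, 277 against 80, and the most strong hypoxia peaks, 55 against 3 (ratio 18.3, 5.95 to 91.6). The bin from 4 Mb followed with 36 against 3 (ratio 12.0, 3.79 to 60.9). By the difference in strong peaks these bins ranked 13 and 35 among 2910 bins of the genome. The bin from 11 Mb, largely covered by the gene CTNND2, had 13 strong hypoxia peaks and no strong normoxia peak.

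**Figure D1:**
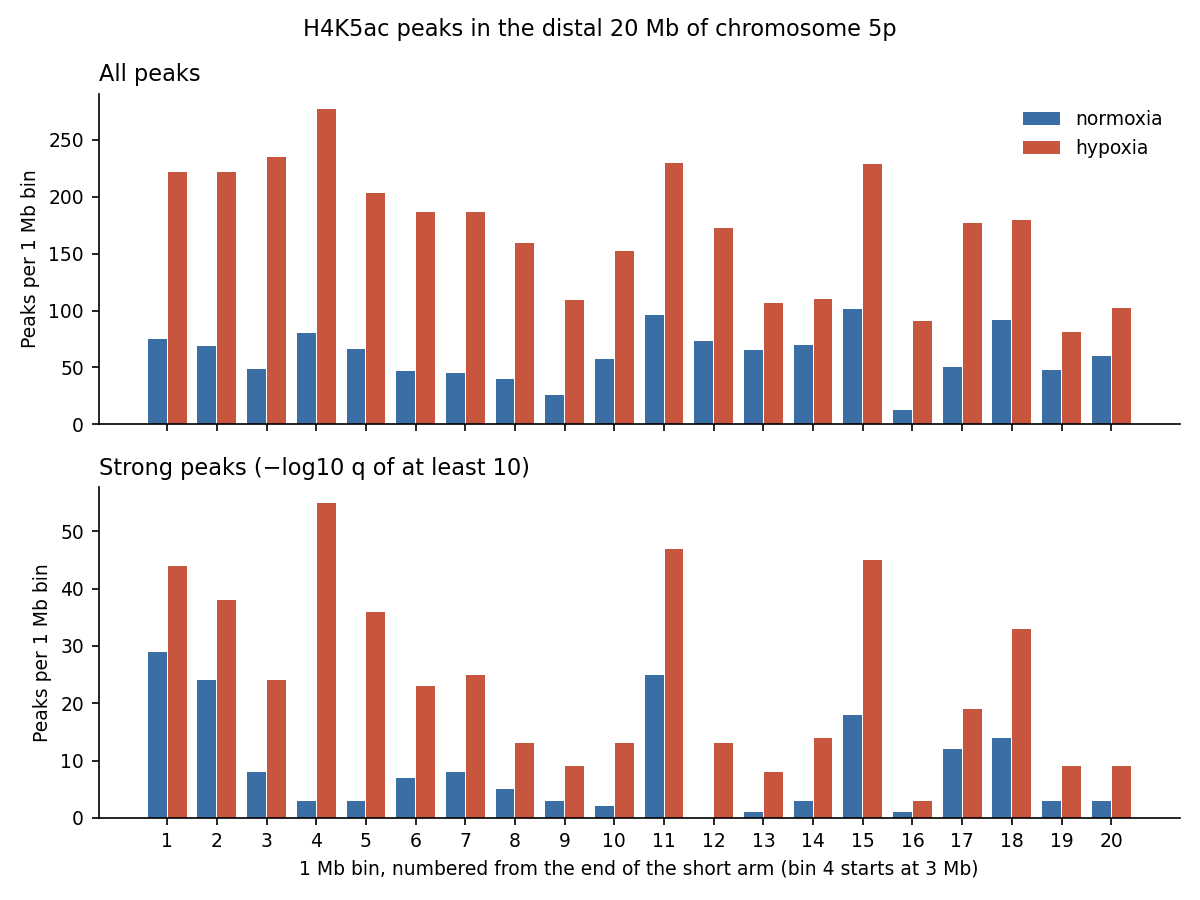
Peaks (upper panel) and strong peaks (lower panel) per 1 Mb bin, with bins numbered from the end of the short arm, bars in blue for normoxia and red for hypoxia. Hypoxia exceeded normoxia in all 20 bins in both panels, and bin 4, which starts at 3 Mb, had 55 strong hypoxia peaks against 3 in normoxia.

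Peak strength was distributed differently along the arm. From 0 to 2 Mb all peaks numbered 144 in normoxia and 444 in hypoxia (ratio 3.08), but strong peaks numbered 53 and 82 (ratio 1.55, 1.08 to 2.23). From 2 to 7 Mb strong peaks numbered 29 and 163 (ratio 5.62, 3.77 to 8.66). From 7 to 20 Mb they numbered 90 and 235 (ratio 2.61, 2.04 to 3.37). Outside protein-coding gene spans (13.3 Mb) the strong ratio was 3.93 (75 and 295 peaks). Inside them (6.69 Mb) it was 1.91 (97 and 185). This split was not computed for the rest of the genome. Without the bin from 3 Mb the region kept a strong ratio of 2.51 (169 and 425).

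**Figure D2:**
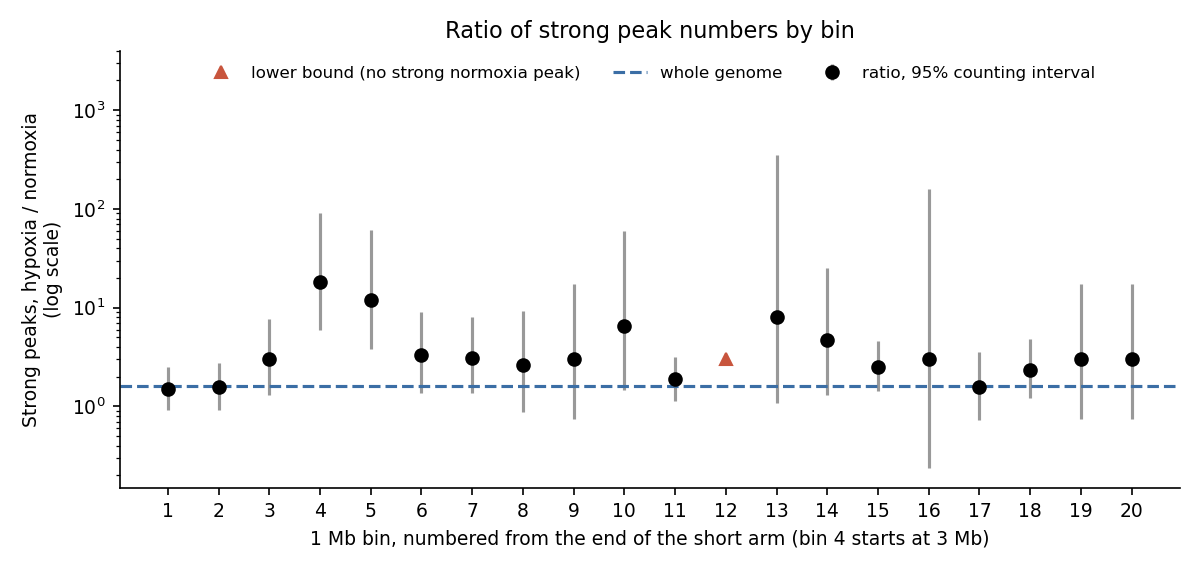
Ratio of strong hypoxia to strong normoxia peaks for each 1 Mb bin on a log scale, with 95% counting intervals, a dashed line at the genome-wide ratio of 1.63 and a triangle for the lower bound where normoxia had no strong peak. Bins 4 and 5, which start at 3 and 4 Mb, stand highest at 18.3 and 12.0 with intervals wholly above the line, and many other intervals cross it.

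Coverage of peaks that both libraries shared also varied along the arm. For the 720 peaks of the region that matched 1 to 1, the hypoxia pileup was a median 1.33 times the normoxia pileup, against 1.27 in the rest of the genome. This median was 1.56 from 0 to 2 Mb, 1.5 from 2 to 7 Mb and 1.21 from 7 to 20 Mb. The local background of the same pairs was a median 1.58 times higher in hypoxia from 0 to 2 Mb, 1.18 from 2 to 7 Mb and 0.994 from 7 to 20 Mb. In the bin from 3 Mb 46 pairs had medians of 1.57 for the pileup and 1.28 for the background. Pileup and background were thus both higher in hypoxia over the outer 7 Mb, and their part in the peak numbers was not tested.

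Most hypoxia peaks of the region had no normoxia peak at the same place, whereas most normoxia peaks had a hypoxia peak. Of the 3433 hypoxia peaks 838 (24.4%, 23.0 to 25.9) shared at least 1 bp with a normoxia peak, against 32.7% of the whole hypoxia list. Of the 1222 normoxia peaks 811 (66.4%, 63.6 to 69.0) overlapped a hypoxia peak, against 68.7% of the whole normoxia list. Strong hypoxia peaks without any normoxia peak numbered 159 of 480 (33.1%), against 13.4% of all strong hypoxia peaks. Strong normoxia peaks without a hypoxia peak numbered 4 of 172, and the share in the whole list was 1.66%. The share lay furthest below that of the rest of the genome in hypoxia peaks with a −log10 q from 5 to 20. From 5 to 10, 24.7% of 1095 hypoxia peaks overlapped (22.2 to 27.4), against 32.0% elsewhere. From 10 to 20, 51.6% of 316 hypoxia peaks overlapped (45.9 to 57.2), against 72.9% elsewhere. From 20 to 50 the share was 94.2% of 104, against 98.05% elsewhere, and at 50 or more all 60 overlapped.

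**Figure D3:**
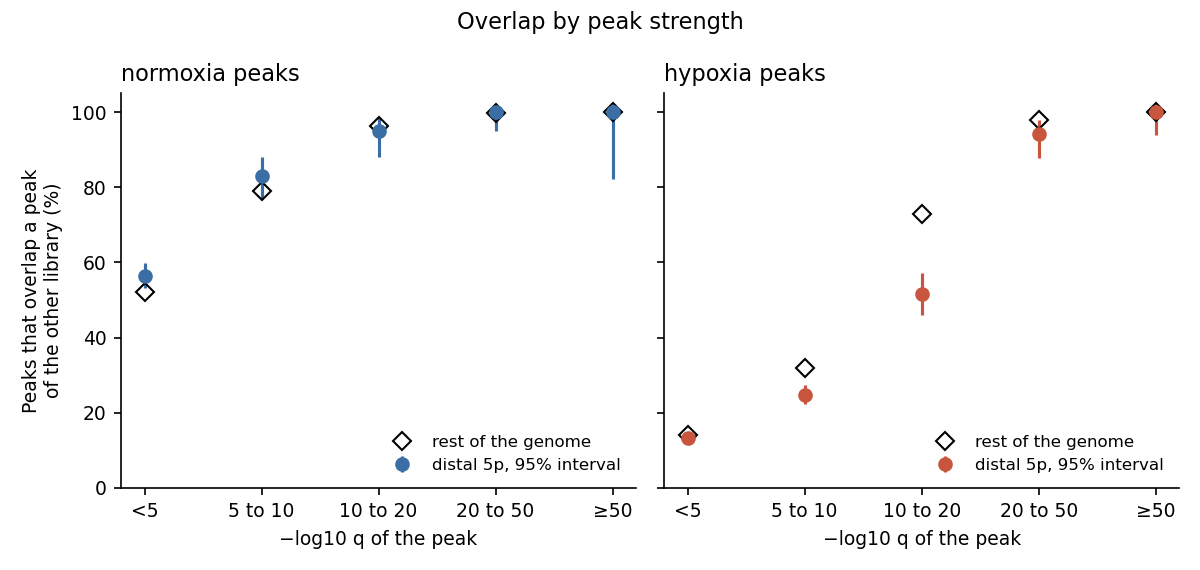
Share of peaks that overlap a peak of the other library, by −log10 q, for normoxia peaks (left) and hypoxia peaks (right), with filled points and 95% intervals for distal 5p and open diamonds for the rest of the genome. Hypoxia peaks with a −log10 q from 10 to 20 overlapped in 51.6% in distal 5p and 72.9% elsewhere, and the strongest peaks overlapped in nearly all cases in both.

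Of the 159 strong hypoxia peaks without a normoxia peak, 80 lay between 2 and 7 Mb, 33 of them in the bin from 3 Mb. Of the 159, 48 lay inside a protein-coding span, as did 185 of all 480 strong hypoxia peaks of the region. Those over 100 kb from a span numbered 75 (47.2%), and 35 lay within 1 kb of a normoxia peak. The latter counts were not made for all peaks. IRX1 is flanked by 844 and 1539 kb without a protein-coding gene, so it is the nearest gene for much of that stretch. Of the 159, the nearest protein-coding gene was IRX1 for 41, ADAMTS16 for 13, and CTNND2, IRX2 and TRIO for 9 each. The strongest, chr5:13243972-13244660, lay 446 kb from DNAH5, a ciliary dynein heavy chain, with a pileup of 41 reads over a background of 4.11 and a −log10 q of 24.5. Others among the first by q lay at TAF11L9 (24.1), at 4.7 Mb on the ADAMTS16 side (chr5:4709356-4709871, 21.1), in TRIO (20.8), 744 kb from H3Y1 (chr5:18399576-18400194, 20.3) and 20.2 kb before IRX1 (20.03). The 4 strong normoxia peaks without a hypoxia peak lay in BASP1, LPCAT1 and LOC124901165 and 53.4 kb from FBXL7, with −log10 q from 11.6 to 14.3, and 3 of them were within 1 kb of a hypoxia peak.

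TERT was the member of the telomerase genes without a strong peak in either library. Its span (chr5:1253167-1295068, minus strand) held 2 normoxia peaks, with folds of 2.80 and 2.93, and 12 hypoxia peaks, with a −log10 q from 2.36 to 8.96. Both normoxia peaks overlapped a hypoxia peak, and the other 10 hypoxia peaks had none. Thus 16.7% of the 12 hypoxia peaks overlapped, against 24.4% in the region and 32.7% of the whole hypoxia list. At the start of the gene the normoxia peak chr5:1294760-1295033 had a pileup of 19 reads over a background of 5.83, and the hypoxia peak chr5:1294588-1294817 had 27 over 12.3. The promoter sequence printed above begins past the end of both, so no peak lay on it. With the 50 bases after the start added, the TERT promoter window was reached by the normoxia peak only. The region had 4 such normoxia-only windows and 35 hypoxia-only ones. Hypoxia backgrounds within TERT ran from 8.26 to 13.2 reads against 3.99 and 5.83 in normoxia, and the part of that difference in the number of peaks was not tested.

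The other telomerase genes, on other chromosomes or at the far end of 5q, were marked strongly in both libraries. All 7 (TERT, TERC, DKC1, NOP10, NHP2, GAR1 and WRAP53) had gene-end peaks in both libraries, and 6 were strong in both. Of all protein-coding genes 69.8% had gene-end peaks in both. All 6 shelterin genes, which cap telomeres, were marked in both, and 5 were strong in both. The other, POT1, had a gene-end peak with a −log10 q of 28.5 in normoxia and 8.36 in hypoxia. CLPTM1L, a membrane protein gene next to TERT, carried a peak within 1 kb of its start with a pileup of 98 reads in normoxia (−log10 q 37.0) and 139 in hypoxia (63.3). Its span held 3 strong normoxia and 4 strong hypoxia peaks.

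The 3 Iroquois genes of 5p each showed a different pattern. IRX4 (chr5:1877413-1887179) carried the widest peak of the region in both libraries, chr5:1881579-1884127 in normoxia (2549 bp, pileup 170) and chr5:1881585-1884186 in hypoxia (2602 bp, pileup 255). At its start, where its promoter printed above lies, normoxia had 2 peaks with a −log10 q of 3.85 and 9.82 and hypoxia 1 broader peak of 31.0. The local background there was high in both libraries, 34.9 and 55.1 reads. IRX2 (chr5:2735635-2751677) was strong in both libraries near its start, with folds of 3.53 in normoxia and 3.42 in hypoxia. Its divergent non-coding neighbour IRX2-DT, formerly C5orf38, carried a strong peak in both libraries, chr5:2752227-2752657 in normoxia (−log10 q 13.4) and chr5:2751911-2752559 in hypoxia (18.7). The hypoxia peak reached into the IRX2 promoter window printed above, and the normoxia peak did not.

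IRX1 (chr5:3595832-3601403, plus strand) had no normoxia peak in its span or within 5 kb of it. The hypoxia list held 10 peaks in that window, 3 of them in the span, none strong, with a −log10 q from 1.96 to 8.67. Their pileups ran from 53 to 71 reads over backgrounds of 24.1 to 35.4, and their folds from 1.63 to 2.55. These backgrounds were among the higher ones of the region, whose hypoxia peaks had a median background of 5.05 reads. No background can be given for normoxia at IRX1, where no peak was called. No peak of either library touched the IRX1 promoter sequence. Among the 6 Iroquois genes of both clusters, 5 were marked at a gene end in both libraries and IRX1 in hypoxia only. Of all protein-coding genes 69.8% were marked in both and 11.7% in hypoxia only.

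The stretches flanking IRX1 differed most in strong peaks among the 3 intervals that follow IRX4, IRX2 and IRX1. Between IRX4 and IRX2 (848 kb) peaks numbered 45 and 213, and strong peaks 5 and 14. Between IRX2 and IRX1 (844 kb) they numbered 51 and 212, and strong peaks 5 and 36 (ratio 7.20, 2.82 to 23.5). Between IRX1 and ADAMTS16 (1539 kb) they numbered 112 and 336, and strong peaks 7 and 69 (ratio 9.86, 4.54 to 25.4). The strong ratio between IRX4 and IRX2 was 2.80 (0.953 to 9.93), and the counting intervals of the 3 stretches overlap.

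The strongest peaks of this stretch were present in both libraries. The hypoxia peak chr5:2779582-2781039, 815 kb before the IRX1 start, had a pileup of 154 reads where normoxia had 60. The peak chr5:3310829-3311783 had 159 against 90, chr5:4083382-4084186 had 140 against 53, and chr5:3740386-3741110 had 143 against 85. Each of these 4 had a strong normoxia counterpart, with a −log10 q from 17.0 to 37.4 against 73.1 to 98.3 in hypoxia. The peak chr5:4615418-4615869 had 73 against 30 reads, with a −log10 q of 54.1 and of 10.1 in normoxia. The peak chr5:5025378-5025931 differed little, with 60 against 56 reads. Background ratios at these 6 places ran from 0.874 to 1.44.

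**Figure D4:**
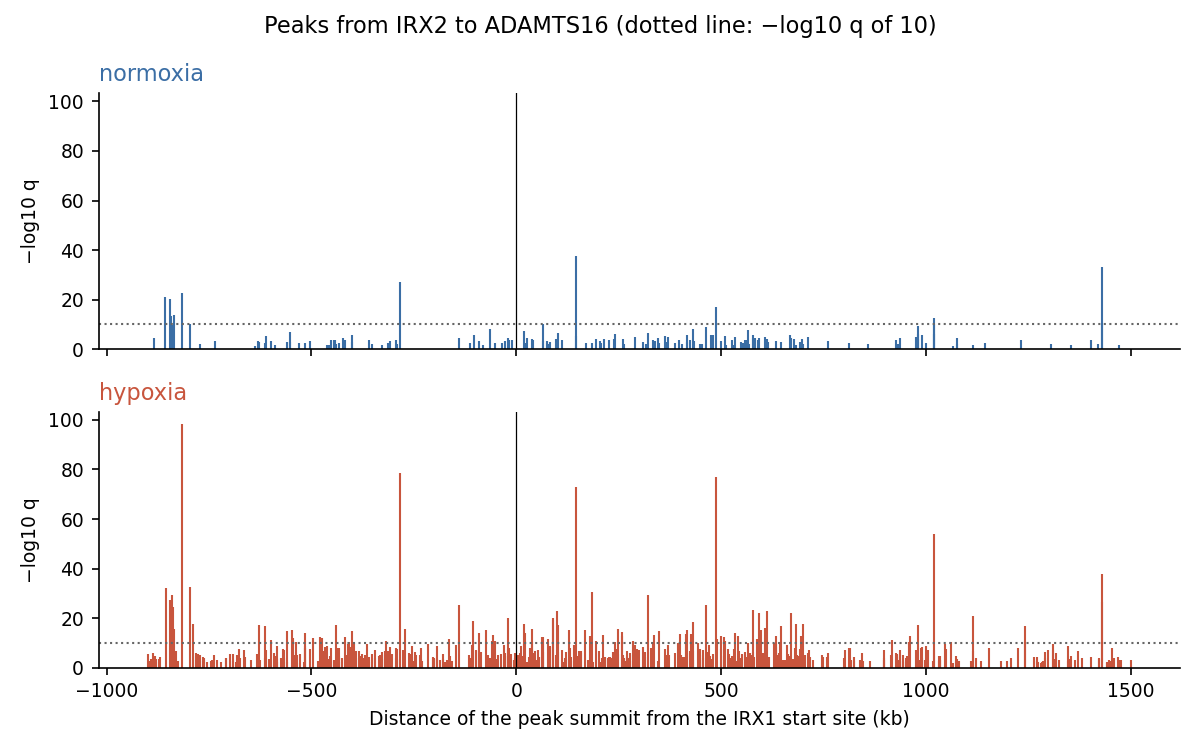
Each peak from IRX2 to ADAMTS16 as a line at its summit, by distance from the IRX1 start site in kb, with height −log10 q, for normoxia (upper) and hypoxia (lower), and a dotted line at 10. The tallest hypoxia lines stand where normoxia also has a strong peak, and hypoxia adds many lines just above 10 on both sides of IRX1.

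In the bin from 3 Mb the strong hypoxia peaks fell into those with and those without a normoxia peak. The 22 with one had pileups from 34 to 159 reads (median 45) and overlapped 23 normoxia peaks with pileups from 16 to 90 (median 23), of which 3 were strong. The 33 without one had pileups from 33 to 65 (median 47) over a median background of 11.1 reads, and 32 of them had a −log10 q below 20. Of the 22 with a normoxia peak, 16 were also below 20, and their median background was 8.66 reads. The median pileups of both sets were thus close, and 6 peaks of 20 or more were shared against 1 that was not.

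Among the non-coding genes of this stretch, LINC01377, LINC01017 and LINC01019 are described as examples, chosen after their values were seen. In the same bin the promoter windows of LINC02162, LOC105374625 and LOC105374626 had no peak in either library. That of LOC107986399 had one in hypoxia only. LINC01377 had a start-site peak with a −log10 q of 3.58 in normoxia and 12.4 in hypoxia, and LINC01017 one of 3.52 and 14.0. LINC01019 (chr5:3417152-3536094, minus strand) had a start-site peak in hypoxia only (10.9), with a pileup of 61 reads over a background of 20.1. Its span held 6 normoxia peaks, none strong, and 26 hypoxia peaks, 6 strong.

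By gene end (1000 bp either side of either end of the span), 51 of 79 protein-coding genes of the region were marked in both libraries and 20 in hypoxia only, while 8 had no such peak and none was marked in normoxia only. Over all genes of the genome 11.7% carried a hypoxia peak alone, 1.06% a normoxia peak alone and 69.8% both kinds, so 20 of 79 (25.3%) lay above the share of all genes. Only SEMA5A (−log10 q 16.4) and TAF11L9 (24.1) among the 20 had a strong peak at a gene end. The others were LRRC14B, ZDHHC11, SLC12A7, SLC6A19, SLC6A18, SLC6A3, LOC124901163, IRX1, ADAMTS16, UBE2QL1, ADCY2, LOC124900940, FBXL7, MARCHF11, TAF11L2, TAF11L11, TAF11L13 and H3Y1. TAF11L and H3Y genes form arrays of near-identical copies, whose reads may be shared among copies, and without them 15 of 64 genes were marked in hypoxia only. With lists of equal length the hypoxia-only count fell to 12 of 79 (15.2%), against 5.7% of all genes. When the whole span was counted it fell to 7 (8.86%), against 9.37% of all genes, so by this measure the share was not above that of all genes. With RefSeq promoter windows in place of gene ends it was 11 of the 69 genes that have a window (15.9%), against 8.58% of all such genes.

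The solute carriers of 5p15, a list of only 5 genes, were marked in hypoxia only in 4 cases, against 11.7% of all protein-coding genes. They transport amino acids, dopamine or ions, and SLC6A19, SLC6A18, SLC6A3 and SLC12A7 had a gene-end peak in hypoxia only, with a −log10 q from 2.05 to 5.01. SLC9A3, the epithelial sodium-proton exchanger, had none at its ends but a strong peak inside its span in both libraries (−log10 q 74.3 and 129.4). SLC12A7 had a strong peak at its annotated promoter in both (−log10 q 34.3 and 48.03). That promoter lies inside the span, outside the windows at the gene's ends, and the hypoxia-only peak of SLC12A7 lay at the upstream end of the span.

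The housekeeping and mitochondrial genes of 5p were marked in both libraries without exception, a state shared by 69.8% of all protein-coding genes. All 16 had a strong peak in both, with a median fold of 5.54 in normoxia and 8.37 in hypoxia. Among them were SDHA of respiratory complex II, NDUFS6 of complex I, MRPL36 of the mitochondrial ribosome and the chaperonin gene CCT5. BRD9 and TRIP13 had the same gene-end peak, as did ATPSCKMT and CCT5, so these peaks were counted for both genes of a pair. The highest fold of the region in both libraries lay at MED10, a Mediator subunit, at 11.0 with 155 reads in normoxia and 17.6 with 258 in hypoxia. Between NSUN2 and SRD5A1 the pileups were 234 and 358 reads, at CCT5 255 and 314, at MARCHF6 248 and 270, and at DAP 192 and 235. Local backgrounds at these 5 places differed by under 5 reads between the libraries. The next highest gene-end folds were 10.7 at TAF11L5 in normoxia and 12.2 at FASTKD3 in hypoxia. SDHA and PDCD6 have pseudogene copies near 1.6 Mb, where SDHAP3 and PDCD6P1 also had strong peaks in both libraries. AHRR, a repressor of the aryl hydrocarbon receptor, had 13 peaks within its span in normoxia and 28 in hypoxia, 4 and 8 of them strong.

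Long genes of the region held more peaks in hypoxia than in normoxia, most of them weak. So did the region (2.81 times as many) and the whole lists (2.15 times). CTNND2, delta-catenin, held 63 normoxia and 167 hypoxia peaks, with 0 and 13 strong. TRIO, a guanine nucleotide exchange factor, held 52 and 110, with 7 and 25 strong. SEMA5A, a semaphorin, held 32 and 77 (1 and 9 strong), MYO10, an unconventional myosin, 22 and 73 (6 and 8 strong) and ADAMTS16, a secreted protease, 15 and 44 (2 and 10 strong). DNAH5 differed less, at 30 and 45 (3 and 7 strong). CDH18, whose span crosses the 20 Mb limit, held 34 and 55 members. TRIO, DNAH5 and CDH18 thus lay below the ratios of the region and of the whole lists. CTNND2 and SEMA5A lay between these ratios, and MYO10 and ADAMTS16 above them.

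FBXL7, which encodes an F-box ubiquitin ligase subunit, had peaks in both lists but none in common. Its 440 kb held 4 normoxia peaks and 53 hypoxia peaks, and no peak of either list in the span overlapped the other list. The hypoxia peaks had pileups of 10 to 25 reads over backgrounds of 3.24 to 4.67, a −log10 q from 1.68 to 9.90, and none was strong. The normoxia peaks had pileups of 11 to 14 reads. ADCY2, an adenylate cyclase, held 8 normoxia peaks and 66 hypoxia peaks, 5 of them strong, and 6 of its 8 normoxia peaks overlapped a hypoxia peak. MARCHF11 held 1 and 14 with no overlap, and UBE2QL1 1 and 13. Over the whole region, 13.2% of hypoxia peaks and 56.5% of normoxia peaks with a −log10 q below 5 overlapped the other list.

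**Figure D5:**
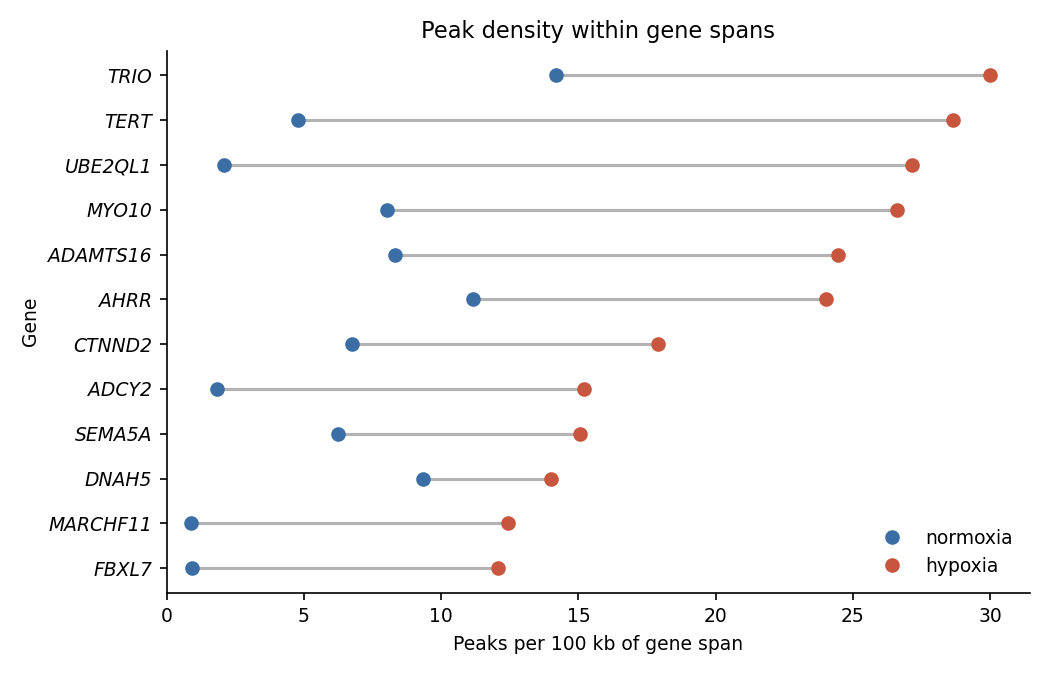
Peaks per 100 kb of gene span in normoxia (blue) and hypoxia (red) for 12 genes over 40 kb, joined by a line for each gene. TRIO has the highest hypoxia density of these genes at 29.98 per 100 kb, and FBXL7 has 0.91 in normoxia and 12.1 in hypoxia.

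Promoter windows of RefSeq (250 bases before to 50 after a start), with those of non-coding genes included, divided otherwise than gene ends. Marked in both libraries were 33.3% of windows, against 64.6% of protein-coding genes by gene end. Marked in neither were 45.4% of windows, against 10.1% of these genes. Of 183 windows in the region, 61 were marked in both libraries, 35 only in hypoxia and 4 only in normoxia, which left 83 unmarked, and 8.45% of all 35116 windows were marked in hypoxia only against 19.1% here. A core ACGTG or GCGTG on either strand was present in 45.9% of the region's windows and 43.2% of all windows. It was present in 20 of the 35 hypoxia-only windows (57.1%), 34 of the 61 marked in both (55.7%) and 29 of the 83 in neither (34.9%). Over the whole genome it was present in 47.9% of the 2967 hypoxia-only windows and 58.2% of the 16296 marked in both. The 35 windows belonged to 30 genes, and 6 of them to LOC107986400. The median number of CpG dinucleotides was 17 in hypoxia-only windows, 28 in windows marked in both and 4 in those marked in neither.

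Members nearest the 20 Mb limit were weak peaks on both sides of it. The last hypoxia member, chr5:19999298-19999517, had a pileup of 16 reads and a −log10 q of 5.17, and the first peak past the limit, chr5:20003652-20003879, had 18 reads and 6.59. The last normoxia member, chr5:19988473-19988856, had 13 reads and a −log10 q of 2.92, and the first past the limit, chr5:20083627-20084095, had 11 reads and 2.08. The bin from 19 Mb held 60 normoxia and 102 hypoxia peaks and the bin from 20 Mb held 42 and 92.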

How the data were processed

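The deposited files are 1 peak list per library, so the authors called peaks in each library separately. The submitters' processing notes name hg38, MACS2 and SICER. No source used here states software versions, peak-calling settings or a control library. For every peak the authors deposited a fold enrichment (a ratio), −log10 p-value and −log10 q-value, with the offset of its summit. The deposited integer score was not used.

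Peaks were assigned by summit. Overlap meant at least 1 bp. Pileup and background were solved from fold = (pileup + 1) / (background + 1) and a Poisson tail for p, which was tested on simulated data and on the files gave 100% of normoxia and 99.999% of hypoxia peaks within 0.001 of the deposited −log10 p-value. These values assume the MACS2 formulas. For depth scaling, hypoxia pileups and backgrounds were divided by 1.18 and p recomputed. Gene spans and promoters came from RefSeq (GRCh38.p14). Of the protein-coding entries of the region, 79 were used and 10 on other scaffolds were left out, and 69 entries had a promoter window. No genome sequence was used, so sequence under distal peaks was not analysed here. Python 3.11.15, NumPy 2.4.6, pandas 2.3.3, SciPy 1.17.1 and matplotlib 3.10.9 were used.

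With 1 library per condition nothing was tested. Shares have 95% Clopper-Pearson intervals, ratios of counts an interval from the same method, and ratios of 2 ratios an exact conditional interval. The region, its genes and gene lists were chosen with earlier results of these data known. Named genes are TERT, CLPTM1L and the Iroquois genes, genes marked in 1 library only, the genes with most peaks in their span, those at the strongest gene-end peaks, the nearest genes of strong peaks without a counterpart, and list members. LINC01377, LINC01017, LINC01019, MARCHF11 and UBE2QL1 span values and the peaks named around IRX1 were chosen after their values were seen.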

Additional observations from a re-analysis of the deposited data

How the results depend on the processing

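Each comparison was recomputed under other settings, 2 of them added after the data were seen (genes without TAF11L and H3Y copies, and promoter windows). No ratio crossed from above 1 to below it, and 20 of 37 alternative values stayed within the main interval, or within 1.5 times the main count. Lists of equal length could not change the strong ratios or the bin count, because the shortened hypoxia list kept every strong peak. The share of genes marked in hypoxia only was above that of all genes by gene end (25.3% against 11.7%). By whole span it was below (8.86% against 9.37%). The strong ratio of the region, 2.79, moved to 4.38 at a −log10 q of at least 5, to 1.82 at 20 and to 1.98 with depth-scaled hypoxia pileups. Relative to the rest of the genome, 1.72 moved to 1.18 at 20. In the bin from 3 Mb, 18.3 moved to 3.50 at 20 (7 and 2 peaks). The share of hypoxia peaks overlapped, 24.4%, became 22.2% for an overlap of 50% of the shorter peak, 21.1% for summits within 250 bp, 37.3% with lists of equal length and 32.9% for strong peaks of both lists. The share of normoxia peaks, 66.4%, became 61.2%, 59.0%, 48.4% and 87.2% in the same order. The 20 of 79 genes marked in hypoxia only became 7 by whole span, 12 with equal lists and 11 of 69 by promoter window. With bins of 0.5 Mb, 34 of 40 bins exceeded the genome-wide ratio. No paired analysis was possible because each condition has 1 library. Read totals are unknown. At the lowest background a pileup of 9 reads was the least called in either list, and 23 reads the least for a strong peak.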
